A study of Homo sapiens with 6 samples.

Results

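MET is the receptor tyrosine kinase for hepatocyte growth factor (HGF). Its RNA was followed here together with the RNA of the ligand, of the proteases and protease inhibitors that set how much active ligand there is, and of the proteins that bind the activated receptor. The 10 genes were taken from the deposited expression table by symbol: MET, its relative MST1R, the ligand HGF, the proteases HGFAC and ST14, the inhibitors SPINT1 and SPINT2, the adaptors GAB1 and SHC1, and the ubiquitin ligase CBL. All 10 were found among the 20289 genes of the table. RNA was sequenced in 6 libraries labelled as T24, an established human bladder cancer cell line, kept in RPMI medium with fetal bovine serum. All were transfected by lipofection. Of these, 3 carry the label Vector (control plasmid) and 3 the label LINC00665 (a pcDNA3.1 plasmid overexpressing LINC00665, a long non-coding RNA), and the series names 3 independent experiments. The libraries held between 17289788 and 22725687 expected counts.

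Identity was checked first, and for 3 of the 6 libraries it went against the labelled cell line, so groups are named by label throughout, and whether a difference goes with the plasmid or with the cells cannot be told apart. The level of LINC00665 itself was not analysed here, so its overexpression was not checked. Of 19 urothelial and squamous epithelial markers, 16 averaged at least 1 CPM (the count scaled to the size of its library) under the LINC00665 label and 7 under the Vector label, where KRT13, KRT20, GRHL3 and UPK3A had 0 counts in every library. KRT20 had 0 counts under the LINC00665 label as well. UPK1A went the other way, with 33 counts in all under the Vector label and 2 under the LINC00665 label. Summed over the 14 kidney tubule markers, the libraries labelled Vector stood at 381 to 545 CPM and those labelled LINC00665 at 34.2 to 36.0 CPM. PAX8, at 262 CPM, made up most of the sum under the Vector label. Of the 14, 5 averaged at least 1 CPM under the Vector label and 2 under the LINC00665 label. LHX1 went the other way, from 0.337 to 18.5 CPM, and CDH6, EMX2, SLC22A6 and UMOD had 0 counts under the Vector label. Log2 CPM correlated across genes at 0.962 to 0.982 among libraries labelled Vector, at 0.990 to 0.995 among those labelled LINC00665, and at 0.737 to 0.757 between labels. In bulk RNA, fewer cells of a type and less RNA per cell cannot be told apart.

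HGF is secreted as an inactive single chain, mostly by mesenchymal cells, and binds MET on epithelial cells productively only after a serine protease has cut it. HGFAC (HGF activator) does so in plasma and tissue fluid, and matriptase, the product of ST14, does so on the surface of epithelial cells. SPINT1 and SPINT2 encode the membrane-bound Kunitz-type inhibitors of these proteases. Active MET phosphorylates a docking site in its tail, which recruits the scaffold GAB1 and the adaptors GRB2 and SHC1, and CBL marks the receptor with ubiquitin for removal from the surface. MST1R, also known as RON, is the other member of the MET receptor family and has macrophage-stimulating protein (MST1) as its ligand.

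Promoter sequence was read from RefSeq (GRCh38.p14) in windows of 300 bases, 250 before and 50 after an annotated start, which 6 of the 10 genes matched with 8 windows. The stretches below are shown because these genes moved, and as they differ in base composition. Capitals mark CG dinucleotides in MET (chr7:116672046-116672195, plus strand), the motif TGANTCA in SPINT1 (chr15:40843918-40844067, plus strand) and in SHC1 (chr1:154970778-154970897, minus strand), and CAGGTG in MST1R (chr3:49903954-49904073, minus strand). Each is written 5′ to 3′ on the strand of its gene.
MET: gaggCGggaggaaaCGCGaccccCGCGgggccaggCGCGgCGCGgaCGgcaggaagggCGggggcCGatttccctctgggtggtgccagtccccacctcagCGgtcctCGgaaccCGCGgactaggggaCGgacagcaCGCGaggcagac
SPINT1: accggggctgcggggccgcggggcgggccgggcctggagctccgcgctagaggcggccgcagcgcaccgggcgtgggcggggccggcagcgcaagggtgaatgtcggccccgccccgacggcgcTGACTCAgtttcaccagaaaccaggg
MST1R: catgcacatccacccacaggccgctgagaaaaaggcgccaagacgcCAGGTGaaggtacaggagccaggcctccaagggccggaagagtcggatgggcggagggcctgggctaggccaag
SHC1: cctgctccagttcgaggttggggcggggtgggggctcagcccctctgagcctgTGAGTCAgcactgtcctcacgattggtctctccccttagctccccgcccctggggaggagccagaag

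The windows of MET, of SPINT1 at the start shown and of MST1R held 30, 38 and 25 CG dinucleotides, against a median of 14 over all 35116 windows, whereas the SHC1 window shown and the HGF window held 7 each. SHC1 has another annotated start, and the window there held 17. TGANTCA, a palindrome in its fixed letters, so that both strands are read at once, is the letter pattern of AP-1 sites. It occurred once in the SPINT1 window, beginning 6 bases before the start, and once in the SHC1 window, 97 bases before the start. Over all windows, 7.71% hold it. CACCTG or its reverse complement CAGGTG, the E-box letters, occurred in the windows of MST1R, HGFAC and the other SPINT1 start, and 20.6% of all windows hold it. Neither motif was in the windows of MET or HGF. The palindrome of the grainyhead factors was in 0 of the 8 windows and in 0.134% of all. These matches describe letters only.

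Of the 10 genes, 8 passed the filter on low counts and were tested by edgeR (quasi-likelihood F). With Benjamini-Hochberg adjustment over the 13552 genes tested and a threshold of 0.05, 6 were higher under the LINC00665 label (MET, MST1R, ST14, SPINT1, SPINT2 and GAB1), SHC1 was lower, and CBL did not pass. Over the whole table the same test called 63.5% of genes, 34.2% higher and 29.3% lower. The median log2 fold change of the 8 was 1.63 and that of all tested genes 0.03. ST14 and SPINT1, which that median includes, would not have passed the filter in the libraries labelled Vector alone, so their direction is tied to it. Of the other 6, 4 were higher and 1 lower, where all genes passing under both labels had 3067 higher and 3632 lower of 11398. The CPM of the groups did not overlap for 7 of the 8, against 70.2% of all genes tested. Where groups do not overlap, the two-sided exact permutation p of a single gene is 0.1, the smallest that 3 libraries against 3 allow.

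**Figure D1:**
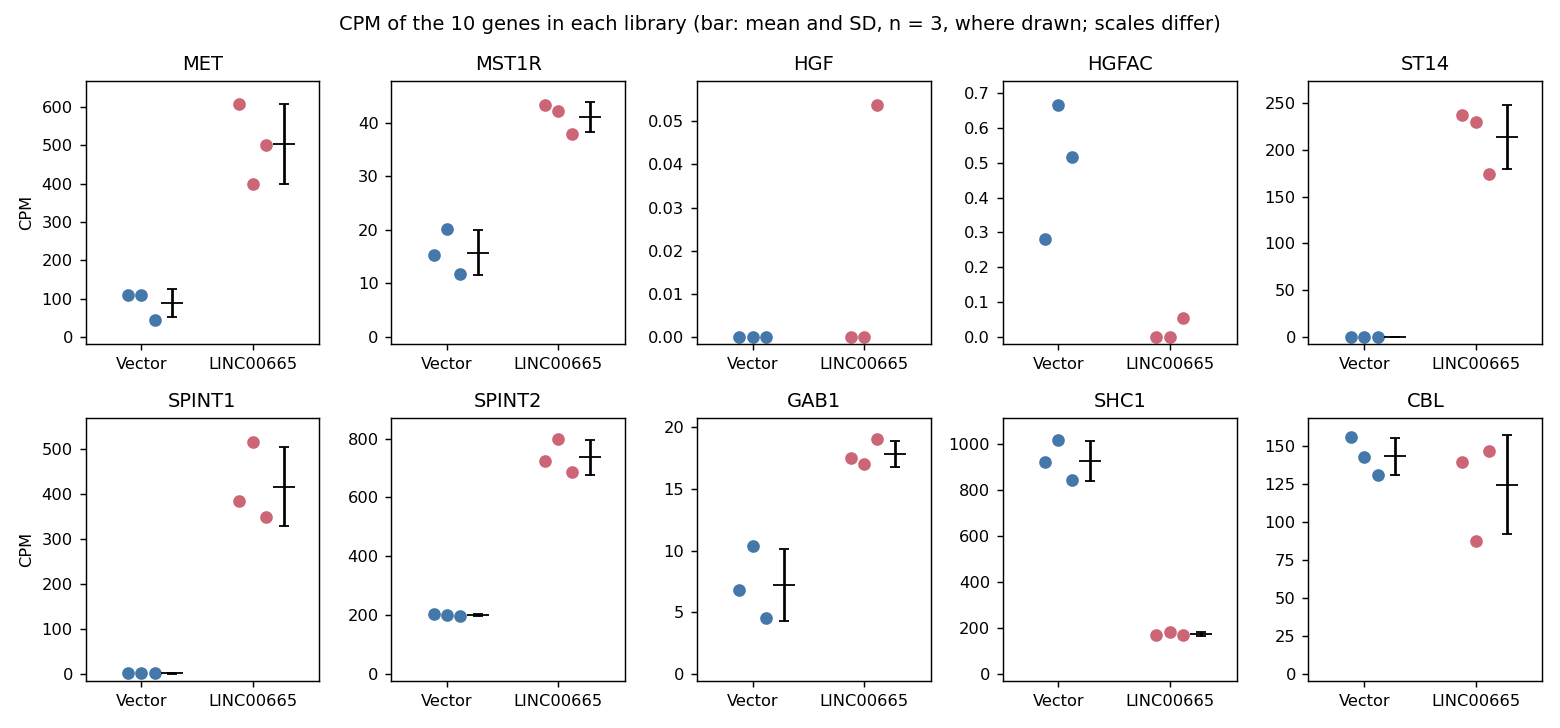
CPM (vertical axes, linear, scales differ) of each of the 10 genes in the 3 libraries labelled Vector (blue) and the 3 labelled LINC00665 (red); black bars give the mean and SD (n = 3) and are left out for HGF and HGFAC. The groups are apart for MET, MST1R, ST14, SPINT1, SPINT2, GAB1 and SHC1, and overlap for CBL, from 87.3 to 147 CPM against 131 to 156 CPM.

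MET itself (ENSG00000105976, chromosome 7, 116672390 to 116798386 in GRCh38, plus strand) stood at 110.0, 110.2 and 45.1 CPM in the libraries labelled Vector 1 to 3 and at 608, 399 and 502 CPM in those labelled LINC00665 1 to 3. The lowest library labelled LINC00665 was above the highest labelled Vector, and Vector 3 was the lowest of all. The means were 88.5 ± 37.5 and 503 ± 105 CPM (SD, n = 3), which the fit put at a log2 fold change of 2.51 with an SE of 0.35 (edgeR adjusted p = 0.00036). Without Vector 3 it was 2.19 (adjusted p = 3.7e-05). On the scale per length, MET averaged 14.5 FPKM and 78.7 FPKM. FPKM is the fragment count scaled to gene length as well as library size. MET was at the 73.7th percentile of all genes of the table under the Vector label and at the 94.6th under the LINC00665 label. The promoter stretch shown above lies wholly upstream of this GENCODE gene start, because RefSeq places its start further upstream.

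MST1R (ENSG00000164078, chromosome 3, 49887002 to 49903873, minus strand) was the scarcer receptor. It stood at 15.3, 20.1 and 11.8 CPM under the Vector label and at 43.2, 42.1 and 38.0 CPM under the LINC00665 label. The groups were apart, and the fitted log2 fold change was 1.39 (SE 0.21, edgeR adjusted p = 0.00056). MET exceeded MST1R in FPKM in each library, by 2.88 to 4.57 times under the Vector label and by 5.93 to 9.64 times under the LINC00665 label. The exact permutation p of that ratio was 0.1, the smallest possible, and 0.1 when adjusted over the 6 ratios tested. Exons of MST1R overlap 2 antisense genes, and whether the counting used strand is not given in the sources used here.

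The genes around MET on chromosome 7 moved to different degrees. In order along the chromosome they are TFEC, TES, CAV2, CAV1, MET, CAPZA2, ST7 and WNT2. TES, a focal adhesion protein, went from 23.5, 44.5 and 15.2 CPM to 351, 339.8 and 362 CPM, the highest fold among these neighbours (log2 3.66, SE 0.37, edgeR adjusted p = 6.1e-05). CAV2, a caveolar coat protein, was also called higher (log2 1.17, SE 0.21, adjusted p = 0.0016), as was ST7 (log2 0.82, SE 0.17, adjusted p = 0.0028). CAV1 did not pass in the same fit (0.49, SE 0.20, adjusted p = 0.057), although it did in 5 of 14 alternatives. CAPZA2, a subunit of the actin capping protein and the next gene after MET, did not pass either, at 55.2 ± 2.25 and 46.2 ± 3.09 CPM (SD, n = 3; log2 fold change -0.26, edgeR adjusted p = 0.12). With total-count scaling it passed as lower (-0.42, adjusted p = 0.023). TFEC and WNT2 had 0 counts under the Vector label and 2 counts each in all under the other. The genes flanking MET on either side, CAV1 and CAPZA2, therefore had smaller fitted differences than MET.

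**Figure D2:**
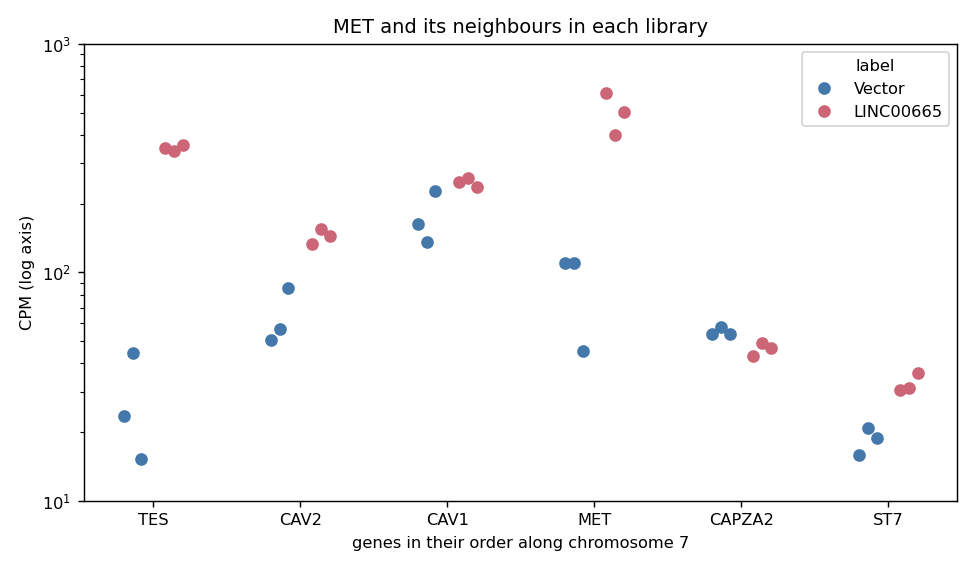
CPM (log axis) of MET and 5 neighbouring genes, in their order along chromosome 7, in the 3 libraries labelled Vector (blue) and the 3 labelled LINC00665 (red). MET and TES show the widest gaps between labels, while CAPZA2 lies near 50 CPM in all 6 libraries, with means of 55.2 and 46.2 CPM.

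For likeness to MET, Pearson's r of log2 CPM over the 6 libraries was computed for 11068 other genes, a description only, since the points form 2 groups of 3 and share their scaling. KIAA1549L had the highest r (1.00), followed by ZSCAN21 (0.999) and LRP4 (0.998). KIAA1549L stood at 15.5, 15.6 and 7.92 CPM under the Vector label and at 58.0, 43.6 and 50.6 CPM under the LINC00665 label. It thus has the same low Vector 3 and the same order among the libraries labelled LINC00665 as MET.

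HGF (ENSG00000019991, chromosome 7, minus strand) had 0 counts in the libraries labelled Vector and 1 count in all under the LINC00665 label. Both lie below 3 counts over a group, which correspond to 0.0510 and 0.0508 CPM, and at this depth a difference could not be detected. The 10 fibroblast markers, of a cell type that makes HGF, summed to 2.07 to 4.10 CPM under the Vector label and to 245 to 273 CPM under the LINC00665 label. PDGFRA, DCN, FAP and POSTN were at 0 counts under the Vector label, and none of the 10 was under the LINC00665 label. THY1, at 165 CPM, and COL1A1, at 71.3 CPM, made up most of the sum there, while PDGFRA, DCN, LUM and POSTN averaged 0.173 to 1.15 CPM. LUM had 9 counts in all under the Vector label and 10 under the LINC00665 label. The part of these cells' markers in the HGF values was not tested. The ligand of the other receptor, MST1, was low, at 0.407 ± 0.0843 and 0.951 ± 0.223 CPM (SD, n = 3; log2 fold change 1.21, SE 0.39, edgeR adjusted p = 0.025). It lost its call in 8 of 13 alternatives, with adjusted p from 0.0022 to 0.09 over all of them. MST1 has near-identical copies and overlapping genes, so its value is uncertain.

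HGFAC (ENSG00000109758, chromosome 4, 3441887 to 3449495, plus strand) was scarce under both labels. It had 6, 12 and 10 counts under the Vector label and 0, 0 and 1 under the LINC00665 label, a ratio of 28.2 in favour of the Vector label with an exact 95% binomial interval of 4.65 to 1151 for counting error only. It did not pass the filter on low counts. With no filter its log2 fold change was -4.39 (edgeR adjusted p = 0.0051).

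ST14 (ENSG00000149418, chromosome 11, 130159562 to 130210376, plus strand) was nearly undetected under the Vector label, with 3, 3 and 1 counts. It had 5093, 4384 and 3238 counts under the LINC00665 label. In CPM these were 0.140, 0.167 and 0.0517 against 237, 230.3 and 174. The ratio of the means was 1791 and the fitted log2 fold change 10.74 (SE 0.32, edgeR adjusted p = 1.4e-07), both resting on 7 counts in all under the Vector label. Matriptase is an epithelial protein. Of the 8 epithelial markers, 7 (CDH1, EPCAM, ESRP1, ESRP2, GRHL2, CLDN4 and CLDN7) were called higher with it, where 34.2% of all genes tested were. OCLN was not, at 43.9 ± 18.1 and 35.4 ± 3.63 CPM (SD, n = 3; log2 fold change -0.31, edgeR adjusted p = 0.41). The 8 summed to 32.5 to 60.2 CPM under the Vector label, most of it OCLN, and to 1301 to 1582 CPM under the LINC00665 label. GRHL2 was at 0 counts under the Vector label. CDH1, EPCAM, ESRP2, GRHL2 and CLDN7 would not have passed the filter in the libraries labelled Vector alone, so the filter fixed their direction. ESRP1 and CLDN4 would have passed it. The part of the 8 markers in the result was not tested.

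Matriptase works together with the membrane-anchored protease prostasin (PRSS8), and its known targets include the protease-activated receptor F2RL1 and the adhesion protein EPCAM. PRSS8 had 2 counts under the Vector label and 104 ± 23.7 CPM (SD, n = 3) under the LINC00665 label, a ratio of 3048 with an exact 95% binomial interval of 843 to 25173. F2RL1 averaged 6.26 ± 1.96 and 215 ± 25.1 CPM (SD, n = 3), and the log2 fold change was 5.10 (SE 0.26, edgeR adjusted p = 1.3e-06). EPCAM rose from 0.128 to 123 CPM (9.77, SE 0.44, adjusted p = 7e-07), from 8 counts in all. Of the 7 genes in this list of matriptase partners and other inhibitors, 7 were called higher, where 34.2% of all genes tested were. PRSS8, EPCAM and SERPINA5 would not have passed the filter in the libraries labelled Vector alone. Of the other 4 genes 4 were higher, against 3067 of 11398 over all genes passing under both labels.

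Among 10 other proteases listed for the activation of HGF, directly or through its activator, 5 passed the filter. All 5 rose, where 34.2% of all genes tested were called higher. TMPRSS2, a membrane-anchored serine protease, had 0 counts under the Vector label and 86.1, 89.6 and 59.5 CPM in the libraries labelled LINC00665, which is at least 1546-fold higher against 3 counts over the group. TMPRSS13 stood at 1 count and 6.05 CPM, a ratio of 354 with an exact 95% binomial interval of 63.1 to 14024. KLK5 had 0 counts under the Vector label and 1.39 CPM under the other, at least 26.9-fold higher. TMPRSS2, TMPRSS13 and KLK5 would not have passed the filter in the libraries labelled Vector alone, so the filter fixed their direction. Of the other 2 genes 2 rose, against 3067 of 11398 over all genes passing under both labels. PLAU, the urokinase, rose from 338 ± 281 to 1247 ± 312 CPM (SD, n = 3; log2 fold change 1.88, SE 0.57, edgeR adjusted p = 0.019), and F12 from 2.22 to 5.08 CPM (1.19, adjusted p = 0.0059). Hepsin, HPN, another activator, was not tested, with 0 counts under the Vector label and 7 in all (0.122 CPM) under the LINC00665 label. PLG, F2, KLKB1 and KLK4 were not tested either, with at most 6 counts in all under either label.

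SPINT1 (ENSG00000166145, chromosome 15, 40844018 to 40858207, plus strand), the inhibitor most closely tied to matriptase, moved with it. It stood at 0.606, 0.333 and 1.91 CPM in the libraries labelled Vector 1 to 3 and at 385, 517 and 348 CPM in those labelled LINC00665 1 to 3. The groups were far apart, and Vector 3 was the highest of its label. The log2 fold change was 8.76 (SE 0.55, edgeR adjusted p = 4.1e-06), or 9.74 without Vector 3 (adjusted p = 3.7e-07). An antisense gene, SPINT1-AS1, overlaps its exons on the opposite strand.

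SPINT2 (ENSG00000167642, chromosome 19, 38244035 to 38292614, plus strand), the broader inhibitor of the pair, was abundant under both labels. It stood at 204, 199 and 196 CPM under the Vector label and at 723, 799.8 and 686 CPM under the LINC00665 label. Its coefficient of variation under the Vector label was 2.09%, the lowest of the 8 tested genes there. The log2 fold change was 1.88 (SE 0.13, edgeR adjusted p = 7.4e-06). Its exons overlap the gene AC011479.1 on the same strand.

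Per length, both inhibitors exceeded the protease in every library. The FPKM ratio of SPINT1 to ST14 was 12, 3.20 and 55.0 under the Vector label and 2.25, 3.12 and 2.89 under the LINC00665 label. The Vector values rest on 1 to 3 counts of ST14 in each library and vary with them: the log2 difference of -2.23 became -1.18 without Vector 3 and -3.24 without Vector 2. SPINT2 exceeded ST14 by 2510 to 6863 times under the Vector label and by 6.16 to 7.91 times under the LINC00665 label. SPINT1 relative to SPINT2 went from 0.00127 to 0.00801 up to 0.365 to 0.445. The gap between 3.20 and 3.12 in the first ratio is smaller than the rounding of the deposited FPKM, which have 2 decimals. In counts the groups overlapped in the first ratio, as Vector 2 (6 to 3) lay below LINC00665 2 (9837 to 4384). In the deposited FPKM, the groups did not overlap in any of these 3 ratios (exact permutation p = 0.1 each, the smallest possible, and 0.1 when adjusted over the 6 ratios). Under the Vector label SPINT2 was thus nearly the whole of the inhibitor RNA, and under the LINC00665 label SPINT1 was a measurable part of it.

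**Figure D3:**
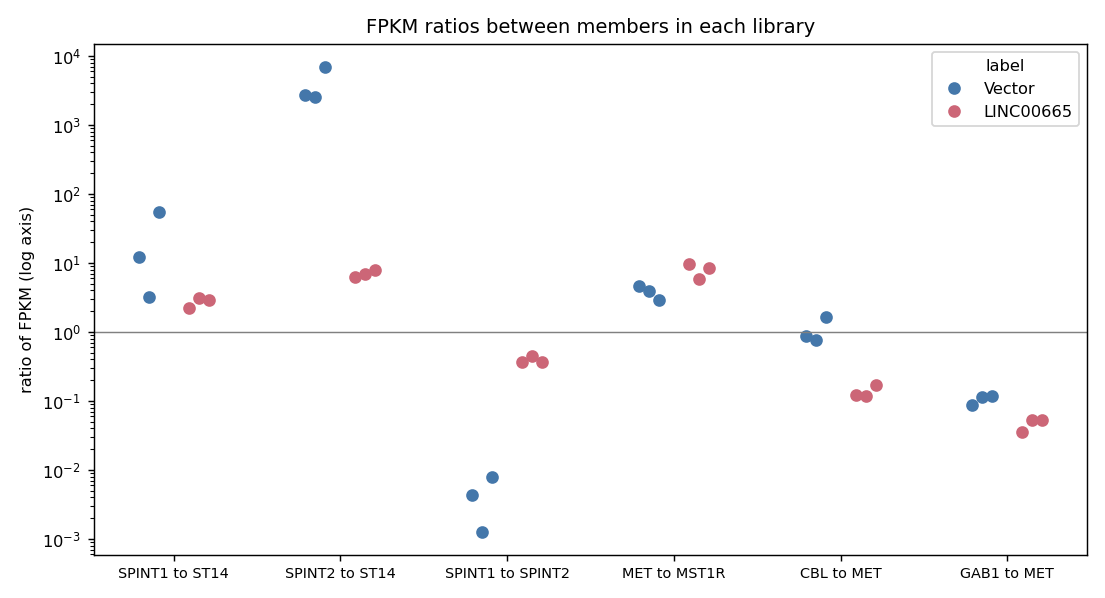
Ratio of FPKM between pairs of the 10 genes (log axis, grey line at equal FPKM) in the 3 libraries labelled Vector (blue) and the 3 labelled LINC00665 (red). SPINT1 and SPINT2 lie above ST14 in all 6 libraries, and CBL to MET falls from 0.768 to 1.63 down to 0.119 to 0.168.

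GAB1 (ENSG00000109458, chromosome 4, 143336762 to 143474568, plus strand), the scaffold bound to MET, was among the scarcer transcripts. It stood at 6.76, 10.3 and 4.55 CPM under the Vector label and at 17.5, 17.0 and 19.1 CPM under the LINC00665 label. Values under the Vector label were the more scattered, with a coefficient of variation of 40.4% against 5.98%. The log2 fold change was 1.31 (SE 0.29, edgeR adjusted p = 0.004), and its 95% interval ran from 0.65 to 1.96. In FPKM, GAB1 was 0.0860 to 0.118 of MET under the Vector label and 0.0352 to 0.0533 under the LINC00665 label. Its relative GAB2 was called higher too, at 10.9, 12.9 and 16.7 CPM against 69.3, 59.6 and 60.3 CPM (2.22, SE 0.19, adjusted p = 2.6e-05). The sum of both per length went from 3.97 ± 0.475 to 13.4 ± 1.10 FPKM (SD, n = 3).

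SHC1 (ENSG00000160691, chromosome 1, 154962298 to 154974395, minus strand), which links receptors to GRB2 and the RAS pathway, was the only one of the tested 8 that was called lower. It stood at 918, 1017 and 843 CPM under the Vector label and at 168, 182 and 167 CPM under the LINC00665 label. Both groups were tight, with coefficients of variation of 9.42% and 4.67%. The log2 fold change was -2.43 (SE 0.14, edgeR adjusted p = 2.6e-06). Exons of SHC1 overlap PYGO2, on the same strand, which had 109 and 118 CPM.

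The relatives of SHC1 went the other way from a level near 0. SHC3 had 0 counts under the Vector label and 23.8, 22.1 and 25.6 CPM in the libraries labelled LINC00665, so at least 467-fold higher, and SHC4 rose from 0.104 to 0.780 CPM (edgeR adjusted p = 0.0013). Per length, SHC1 still made up 93.9 to 95.9% of the FPKM summed over SHC1, SHC2, SHC3 and SHC4 under the LINC00665 label. The family sum was 366 ± 31.2 and 66.4 ± 1.40 FPKM (SD, n = 3) under the labels Vector and LINC00665. These family sums, like those of GAB and CBL, were chosen after the values were seen and are given with no test.

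CBL (ENSG00000110395, chromosome 11, 119206276 to 119313926, plus strand), the ligase that ends MET signalling, was the only tested gene of the 10 whose groups overlapped. It stood at 156, 143 and 131 CPM under the Vector label and at 140, 87.3 and 147 CPM under the LINC00665 label, where replicate 2 was lowest. The log2 fold change was -0.20 with a 95% interval of -0.68 to 0.28 (edgeR adjusted p = 0.43), and -0.02 without LINC00665 2. The interval leaves out a change of the size seen for MET. CBL overlaps MCAM on the opposite strand, and MCAM was at 11.8 CPM under the Vector label and 199 CPM under the LINC00665 label. The FPKM ratio of CBL to MET was 0.885, 0.768 and 1.63 under the Vector label and 0.123, 0.119 and 0.168 under the LINC00665 label (exact permutation p = 0.1).

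The other Cbl ligases were higher under the LINC00665 label. CBLB stood at 8.62, 15.4 and 10.5 CPM against 31.3, 33.4 and 31.8 CPM (log2 fold change 1.49, SE 0.22, edgeR adjusted p = 0.00055). CBLC, the form known from epithelial cells, had 1 count under the Vector label and 59.1, 54.4 and 54.1 CPM under the LINC00665 label, a ratio of 3293 with an exact 95% binomial interval of 591 to 130105. Per length, CBL made up 75.0 to 83.1% of the sum of the 3 ligases under the Vector label and 15.4 to 23.3% under the LINC00665 label, where CBLC made up 61.5 to 69.4%. The sum went from 18.1 ± 0.819 to 53.2 ± 5.71 FPKM (SD, n = 3). CBL was thus the most abundant of the 3 under the Vector label and CBLC under the LINC00665 label.

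**Figure D4:**
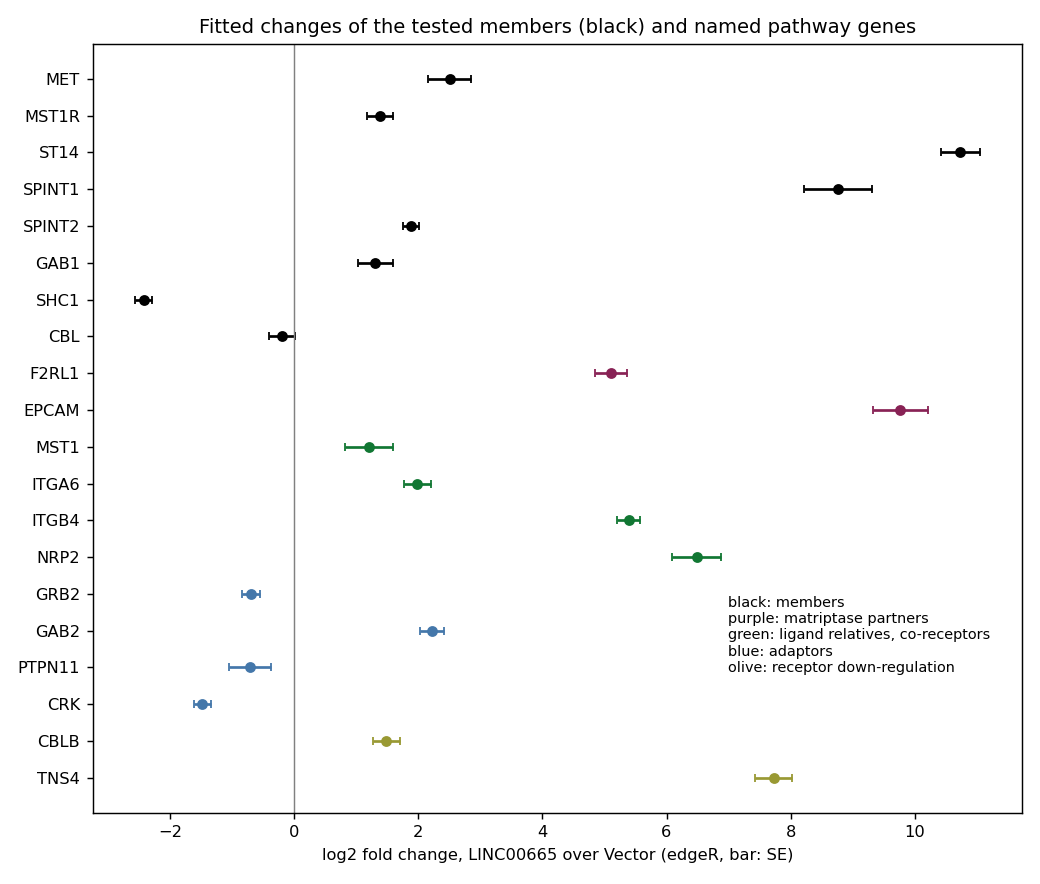
Fitted log2 fold change (horizontal axis, LINC00665 over Vector, edgeR; bars are the SE) of the 8 tested members in black and, in colour, of pathway genes named by the rule given with the processing that had over 3 counts under the Vector label. SHC1 at -2.43, CRK at -1.48, PTPN11 at -0.71, GRB2 at -0.70 and CBL at -0.20 lie left of 0, and the others lie right of it.

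Of 65 other genes of HGF and MET signalling, 59 were tested, with 30 higher, 7 lower and 22 not passing. Their median log2 fold change was 0.46, against 0.03 over all genes. Of the 59, 14 would not have passed the filter in the libraries labelled Vector alone, so their direction is tied to it, and that median includes them. The other 45 had 16 higher and 7 lower, where all genes passing under both labels had 3067 higher and 3632 lower of 11398.

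Of 19 adaptors and first effectors of the receptor that were tested, 3 were higher, 2 were lower and 14 did not pass, against 34.2% higher and 29.3% lower over all genes tested. SHC3 and SHC4 would not have passed the filter in the libraries labelled Vector alone. The other 17 genes had 1 higher and 2 lower, where all genes passing under both labels had 3067 higher and 3632 lower of 11398. GRB2, which binds the MET tail and joins SHC1 and GAB1 to the RAS exchange factors, fell from 205 ± 23.5 to 127 ± 9.88 CPM (SD, n = 3; log2 fold change -0.70, SE 0.15, edgeR adjusted p = 0.0033). CRK, an adaptor of GAB1, fell from 159 ± 11.1 to 57.0 ± 3.11 CPM (-1.48, SE 0.14, adjusted p = 3.4e-05). PTPN11, the phosphatase SHP2 recruited by GAB1, stood at 199, 72.1 and 182 CPM under the Vector label and at 100.4, 89.2 and 86.6 CPM under the LINC00665 label. It did not pass (-0.71, SE 0.34, adjusted p = 0.094), but without Vector 2, the low library, it did (-1.05, adjusted p = 0.00026).

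Of 10 ligand relatives and partners of the receptors, 7 rose and 0 fell, where 34.2% of all genes tested were called higher. NRP2, PLXNB3 and MST1, whose call was not stable, would not have passed the filter in the libraries labelled Vector alone. Of the other 7 genes 4 rose, against 3067 of 11398 over all genes passing under both labels. ITGB4, the integrin subunit that associates with MET, rose from 45.1 ± 7.08 to 1890 ± 148 CPM (SD, n = 3; log2 fold change 5.39, SE 0.19, edgeR adjusted p = 2.4e-07), and its partner ITGA6 from 125 ± 32.9 to 492 ± 76.3 CPM (1.98, SE 0.22, adjusted p = 9.5e-05). NRP2, a neuropilin, rose from 20 counts in all to 30.9 CPM (6.48, SE 0.39, adjusted p = 3.2e-06). CD44, PLXNB1 and PLXNB2 did not pass.

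Of 18 genes of receptor trafficking, dephosphorylation and stability, 8 rose, 5 fell and 5 did not pass, against 34.2% higher and 29.3% lower over all genes tested. SH3GL2, TNS4 and CBLC would not have passed the filter in the libraries labelled Vector alone. The other 15 genes had 5 higher and 5 lower, where all genes passing under both labels had 3067 higher and 3632 lower of 11398. TNS4, a tensin that binds MET, rose from 0.520 ± 0.224 to 110 ± 11.9 CPM (SD, n = 3; log2 fold change 7.72, SE 0.30, edgeR adjusted p = 3.6e-07). SH3GL2, an endophilin of receptor uptake, had 0 counts under the Vector label and 21.7 CPM under the other, at least 429-fold higher. The 5 that fell were PTPRJ, SH3KBP1, CD2AP, ADAM10 and USP8, named here after their values were seen, with log2 fold changes from -0.84 to -1.35. SH3KBP1 and CD2AP encode the adaptors that link CBL to the uptake machinery, and ADAM10 is a sheddase of surface proteins.

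Ordered by FPKM, the 10 genes stood differently under the labels. Under the Vector label SHC1 led with 366 FPKM, followed by SPINT2 with 133 FPKM, MET with 14.5 FPKM and CBL with 14.1 FPKM; MET and CBL overlapped. MST1R, GAB1, SPINT1, HGFAC, ST14 and HGF followed, with overlap between GAB1 and SPINT1 and between SPINT1 and HGFAC. Under the LINC00665 label SPINT2 led with 424 FPKM, followed by SPINT1 with 167 FPKM. MET with 78.7 FPKM, SHC1 with 63.0 FPKM and ST14 with 61.0 FPKM came next, with overlap between MET and SHC1 and between SHC1 and ST14. CBL, at 10.8 FPKM, and MST1R, at 9.84 FPKM, overlapped as well, and GAB1, HGFAC and HGF came last.

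Vector 3 was the lowest of its label for 7 of the 8 tested genes, all but SPINT1, for which it was the highest. Under the LINC00665 label replicate 3 was the lowest for 5 and replicate 2 for 3, namely MET, GAB1 and CBL. Without Vector 3 each of the 8 kept its side of the threshold, with 6 higher and 1 lower.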

How the data were processed

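The authors deposited 1 table whose expected counts are given for each gene in each library, not normalised, with 88.3 to 89.4% of values whole to within 0.005. The same deposited table holds FPKM, a unit that accounts for gene length and sequencing depth, per the file headers. HISAT2 2.0.4 and hg38 are named in the submitters' processing notes, with no role; for the counting tool, the annotation and the use of strand, these were not given in the sources used here. Of the identifiers, 20171 were in GENCODE v29 (GRCh38, the assembly of hg38).

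Expected counts were rounded, filtered (filterByExpr, about 0.511 CPM in 3 libraries), normalised with TMM factors and analysed by the quasi-likelihood F-test of edgeR 4.0.16 in R 4.3.3, with Benjamini-Hochberg adjustment over 13552 genes and no covariate. CPM use the scaled library sizes. Each SE is the absolute log2 fold change over the square root of F. FPKM ratios were tested by exact permutation (scipy 1.17.1). Alternatives were DESeq2 1.42.0, limma 3.58.1 (voom, and trend on log2(FPKM + 1)), other scalings and filters, a replicate block and leaving out each library. On simulated data with 13552 genes and 200 changed, the test recovered 38% of 2-fold and 92% of 4-fold changes, with 4.41% false calls. The simulation changed far fewer genes than the 63.5% called here, so these rates need not hold for these data. Figures were drawn with matplotlib 3.10.9.

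The 10 genes and the lists were chosen with earlier results of these data known. Named were all 10, the 3 genes of each list with the smallest p, MST1, GRB2, PTPN11, HPN, CBLB and CBLC, the neighbours of MET, and the 3 genes most like MET (of those averaging at least 5 CPM). PLAU, F12, SHC4 and other list members outside this rule were named after their values were seen, to complete a count. The endothelial and leukocyte markers summed to 0.280 to 1.14 and 10.9 to 17.3 CPM under the Vector label and to 11.8 to 13.5 and 117 to 189 CPM under the LINC00665 label. The mesenchymal markers summed to 1961 to 2682 and 6233 to 6517 CPM. FN1, at 341 and 5708 CPM, made up most of the latter sum. VIM fell from 1883 to 333 CPM and ZEB1 from 15.6 to 0.0665 CPM. ZEB2 did not pass, and CDH2, TWIST1, SNAI1 and SNAI2 were called higher, as was FN1. Library pairs of a label differed by more than sampling noise (chi-square per degree of freedom 10.2 to 121). The design text names 3 independent experiments without saying which libraries each gave. Intervals and limits of 3 counts cover counting error only.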

Additional observations from a re-analysis of the deposited data

How the results depend on the processing

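None of the 477 alternative values of 35 named genes changed sign; 8 lost the call, all of MST1, and 10 gained it, in PTPN11, CAV1 and CAPZA2. Of all genes, 8611 were called, and 5691 when a 2-fold difference in either direction was also required. The count of the 10 genes called lower was 1, and 2 with no filter on low counts; leaving out single libraries it ranged from 1 to 2, the second being HGFAC, which then passed the filter. The count of other pathway genes called higher fell from 30 to 15 when 1 CPM was required in all 6 libraries, which left fewer genes to test. The count called lower was 7, with 12 under total-count scaling, the cause of which was not tested. It was 3 with the fold minimum, as GRB2, PTPRJ, SH3KBP1 and USP8 fell by less than 2-fold. Total-count scaling moved the median log2 fold change of all genes from 0.03 to -0.13. Replicate numbers are shared by the labels, but same-numbered libraries deviated together only for number 1 (r = 0.273, -0.181 and -0.244). Vector 2 with LINC00665 3 and Vector 3 with LINC00665 2 did so too (r = 0.269 and 0.284). Which libraries share an experiment is not given, so none were taken as pairs, and a fit with pairs matched by these values was not run. The replicate block follows the numbers. With the replicate block 7924 genes were called, 6 of the 10 higher and 1 lower, and 29 and 7 of the other pathway genes, and MST1 alone among named genes lost its call (adjusted p = 0.09). Depth limits HGF and HGFAC, and the folds of ST14 and SPINT1, which rest on 7 and 56 counts under the Vector label.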
